A study of Mus musculus with 4 samples.

Results

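The genes described here are the core writers, readers and erasers of m6A, the methyl mark on adenosine that is the most common internal modification of mRNA. They were chosen by name, as the rows of the deposited expression table whose symbol is Mettl3, Mettl14, Wtap, Ythdf1, Ythdf2, Ythdf3, Ythdc1, Ythdc2, Alkbh5 or Fto. All 10 were found among 53715 genes, and all 10 had enough reads to be tested. They were measured by RNA sequencing of sorted CD4+CD8+ double-positive (DP) cells from the thymus of C57BL/6 mice aged 6 to 8 weeks. The WT group and the KO group had 2 libraries each, and the KO genotype is given as LCKCre/+ Srsf1fl/fl. The Lck promoter, which is active from early thymocyte stages, thus drives the Cre recombinase that deletes Srsf1, the gene of an SR protein that acts in splice site choice. The sources do not say whether the WT mice carried Cre or whether each library came from its own animal, so the p-values measure only the spread between these samples, which may be technical.

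The mark is set in the nucleus by a complex in which Mettl3 is the catalytic subunit, Mettl14 supports RNA binding and Wtap holds the enzyme pair at nuclear speckles. It is read by proteins with a YTH domain: Ythdc1 in the nucleus, where it acts in splicing and export with other SR proteins, the Ythdf paralogs in the cytoplasm, where they promote decay of marked mRNA, and Ythdc2, a helicase best known from germ cells. Alkbh5 and Fto are oxygenases that remove the methyl group. In T cells the pathway is known for the control of naive T cell homeostasis through mRNAs of cytokine signalling inhibitors.

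Of the 10 members, 2 fell in the KO libraries, 0 rose and 8 were not called. Both that fell are readers, Ythdf3 and Ythdc1. The threshold for a call was an adjusted p of 0.05 in the edgeR quasi-likelihood test, with the Benjamini-Hochberg method applied to every tested gene. By that rule 14.5% of the 16588 tested genes were called, made up of 7.89% lower in KO and 6.63% higher. DESeq2 and limma-voom likewise called 0 members higher, and both called 3 lower. Of the 16588 tested genes, DESeq2 called 1486 lower and limma-voom called 1426 lower. Calls were more frequent among abundant genes: of genes with a mean of at least 100 counts-per-million (CPM), 35.8% were called, and 2 of the 6 members at that level. The share of members called is therefore near the background. At an unadjusted p under 0.05 by edgeR there were 3 members, the third being Alkbh5, all lower in KO. So were 4542 of the 16588 tested genes, in either direction, so that number is also near the background.

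The targeted gene was checked first. Counts of Srsf1 were 4821 and 4485 in WT against 1839 and 1772 in KO, so that both KO libraries were below both WT libraries. Library totals ran from 35862730 to 37033180 counts. Every member had at least 1273 counts in each library, so the number of libraries, more than depth, limits the precision. All 9 markers of DP thymocytes were detected in every library, and their summed level was 8179 and 7807 CPM in WT and 11500 and 11270 CPM in KO. The summed level of 19 markers of B cells, myeloid and dendritic cells, erythroid cells and thymic epithelium was 18.6 to 26.1 CPM, overlapping between groups, with S100a8, Krt5 and Foxn1 at 0 counts throughout. Epcam alone had 8.28 to 11.5 CPM of that sum. Taken by cell type, the B cell sum was 1.93 and 2.51 CPM in WT and 3.17 and 3.41 CPM in KO, without overlap. The dendritic sum, also without overlap, was 1.45 and 1.61 CPM in WT and 0.161 and 0.941 CPM in KO. The myeloid, erythroid and epithelial sums overlapped. Other markers moved with the genotype: all 4 cycling cell markers rose (summed level 705 and 735 CPM in WT, 1278 and 1005 CPM in KO). Ccr7, S1pr1 and Klf2, markers of mature single-positive thymocytes, fell. Their part in the differences reported here was not tested. In bulk samples, fewer cells of a type cannot be told apart from less RNA per cell.

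Per unit of gene length, the members formed an abundant and a scarce group. The deposited values in reads scaled to gene length and library total (RPKM) put Ythdf1 at the top of the WT libraries, at 59.6 ± 0.484 (SD, n = 2), and Ythdc2 at the bottom, at 4.47 ± 0.147. In between came Alkbh5 at 54.1 ± 0.893, Ythdf3 at 39.2 ± 2.11, Ythdc1 at 31.7 ± 1.46, Ythdf2 at 31.6 ± 3.33 and Wtap at 27.8 ± 0.0604 RPKM. The scarce group followed with Mettl3 at 7.80 ± 1.31, Mettl14 at 5.62 ± 0.310 and Fto at 5.29 ± 0.822 RPKM. Neighbours in this order overlapped between WT libraries for Ythdc1 and Ythdf2 and for Mettl14 and Fto. In KO, Ythdf3 moved from rank 3 to rank 5 and Ythdc1 from rank 4 to rank 6, while Wtap moved from rank 6 to rank 3. The other ranks were the same except Ythdf2, which went from 5 to 4.

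**Figure D1:**
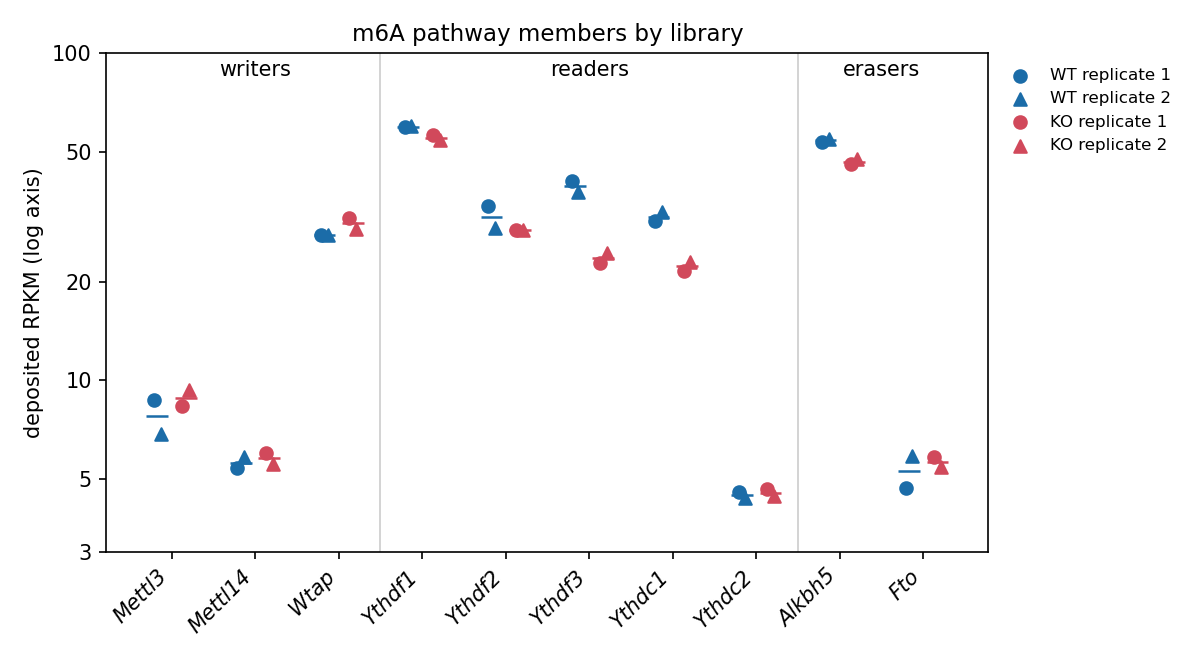
Deposited RPKM values (vertical log axis) of the 10 members in each library, with circles for replicate 1, triangles for replicate 2 and short lines for group means of 2 libraries. The KO points of Ythdf3 (22.9 and 24.5 RPKM) and Ythdc1 (21.6 and 23.0 RPKM) lie well below their WT points (40.7 and 37.7, and 30.6 and 32.7 RPKM), whereas Mettl3, Mettl14, Ythdc2 and Fto overlap between groups.

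None of the 3 writers was called by edgeR, DESeq2 or limma-voom, and 0 of them were at an unadjusted p under 0.05 by edgeR. Mettl3, the methyltransferase itself (chromosome 14, 52294841 to 52305128, minus strand, GRCm38), had 44.4 and 34.7 CPM in WT and 42.2 and 47.8 CPM in KO. The WT libraries lay farther apart than the KO libraries, and the groups overlapped. The log2 fold change (KO minus WT) was 0.18 with a 95% confidence interval from -0.13 to 0.50 (adjusted p = 0.478 by edgeR). Mettl3 shares 18.4% of its exon bases with Tox4 on the opposite strand, and the strand setting of the counting is not given in the sources used here. Tox4, a DNA-binding HMG box protein gene, fell from 227 ± 2.71 to 141 ± 7.22 CPM. Reads from the shared bases cannot be assigned, and what part they have in the Mettl3 values was not tested.

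Mettl14, the partner of Mettl3 (chromosome 3, 123368297 to 123386108, minus strand), had 40.2 and 43.1 CPM in WT and 44.3 and 41.7 CPM in KO. The groups overlapped here too, with a log2 fold change of 0.05 (95% confidence interval -0.23 to 0.32). The RPKM ratio of Mettl3 to Mettl14 was 1.62 and 1.18 in WT and 1.39 and 1.68 in KO, so the KO libraries did not stand apart. Wtap, the adaptor subunit (chromosome 17, 12966796 to 12994169, minus strand), had 158 and 156 CPM in WT and 177 and 165 CPM in KO. Both KO libraries were above both WT libraries, yet the log2 fold change of 0.12 (95% confidence interval -0.05 to 0.30, adjusted p = 0.354 by edgeR) did not pass the test. Groups that do not overlap were common, at 55.9% of all tested genes. Among the members there were 6, with KO below WT in 5 and above in 1. Of all 16588 tested genes, 4637 (28.0%) had KO below and 4640 had KO above. These 6 members are the 6 with a mean of at least 100 CPM. The share without overlap among all genes at that level was not computed.

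Among the cytoplasmic readers, the paralogs did not move by the same amount. Ythdf3 (ENSMUSG00000047213.14, chromosome 3, 16183212 to 16217037, plus strand) had 219 and 201 CPM in WT and 122 and 132 CPM in KO. Both KO libraries were far below both WT libraries, and no other annotated gene shares its exon bases. Its level fell by 39.5%, a log2 fold change of -0.72 (SE 0.08, 95% confidence interval -0.91 to -0.54, adjusted p = 0.000165 by edgeR).

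Ythdf1, the paralog with the highest RPKM (chromosome 2, 180904377 to 180920949, minus strand), had 197 and 198 CPM in WT and 185 and 181 CPM in KO. The KO libraries were the lower pair, by a small margin, and the log2 fold change was -0.11 (95% confidence interval -0.27 to 0.05, adjusted p = 0.394 by edgeR). Ythdf2, the paralog that recruits the CCR4-NOT deadenylase (chromosome 4, 132184912 to 132212303, minus strand), had 155.9 and 133.3 CPM in WT and 130.6 and 132.5 CPM in KO. The second WT library was close to the KO pair, and the log2 fold change was -0.14 (95% confidence interval -0.33 to 0.06, adjusted p = 0.380). The intervals of Ythdf1 and Ythdf2 do not reach the change of Ythdf3, but the difference between paralogs was not tested.

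Set against each other per unit of length, Ythdf3 supplied 30.4% and 29.7% of the summed RPKM of the 3 paralogs in WT and 21.3% and 22.8% in KO. The Ythdf1 share was 44.2% and 47.2% in WT and 52.0% and 50.5% in KO, and the Ythdf2 share was 25.4% and 23.1% against 26.7% and 26.8%. The summed RPKM itself was 134 and 127 in WT and 108 in both KO libraries. For a single value such as this share, 2 libraries against 2 cannot give an exact two-sided permutation p below 0.333, so these shares are a description.

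**Figure D2:**
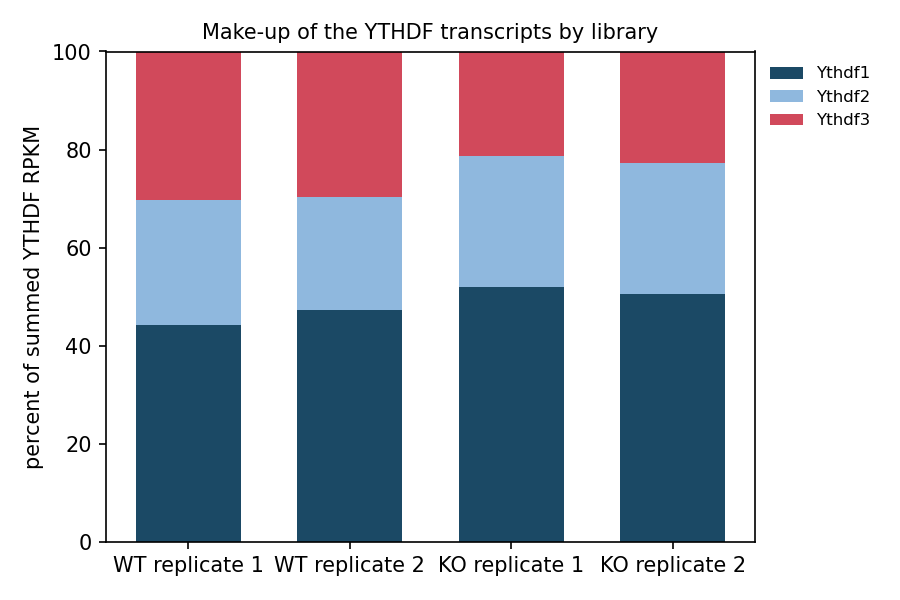
Stacked bars of the percent of summed RPKM that came from each of Ythdf1, Ythdf2 and Ythdf3, 1 bar per library and 100% in each. The Ythdf3 part is about 30% in both WT libraries (30.4% and 29.7%) and is smaller in both KO libraries (21.3% and 22.8%).

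Ythdc1, the nuclear reader (ENSMUSG00000035851.14, chromosome 5, 86804221 to 86836659, plus strand), had 419.6 and 444.5 CPM in WT and 293.1 and 316.4 CPM in KO. It had the most reads of all members, and both KO libraries were well below both WT libraries. Its level fell by 29.5%, a log2 fold change of -0.50 (SE 0.07, 95% confidence interval -0.66 to -0.34, adjusted p = 0.000768 by edgeR). An unnamed annotated gene on the same strand, Gm43055, shares 4.62% of the Ythdc1 exon bases and had 0 counts in every library. The annotation lists 9 Ythdc1 transcripts, of which 3 are protein-coding, 4 are retained-intron and 1 is a nonsense-mediated decay form. Gene counts do not tell these apart. Leaving out any 1 library gave log2 fold changes from -0.55 to -0.44 for Ythdc1 and from -0.78 to -0.66 for Ythdf3, called each time. With limma on log2(RPKM + 0.5) over every gene with a read, neither was called (adjusted p = 0.0860 for Ythdf3 and 0.0970 for Ythdc1). In that fit 0 of 25133 genes were called, while 4289 had an unadjusted p under 0.05. With genes under a mean of 1 RPKM left out, both were called again (0.0206 and 0.0316).

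Ythdc2, the helicase reader (chromosome 18, 44827746 to 44889724, plus strand), had 40.7 and 38.6 CPM in WT and 41.1 and 39.6 CPM in KO. The groups overlapped, with a log2 fold change of 0.03 (95% confidence interval -0.25 to 0.30). The RPKM ratio of Ythdc1 to Ythdc2 was 6.70 and 7.49 in WT and 4.64 and 5.19 in KO.

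Of the erasers, Alkbh5 (chromosome 11, 60536381 to 60558512, plus strand) had 321 and 326 CPM in WT and 273 and 286 CPM in KO. Both KO libraries were below both WT libraries, with a log2 fold change of -0.21 (SE 0.07, 95% confidence interval -0.37 to -0.06). The edgeR adjusted p was 0.0683, so it was not called. It was called by DESeq2 (0.0262) and limma-voom (0.0388), when only genes averaging 1 CPM or more were kept (0.0404) and without KO replicate 2 (0.0472). Over all alternatives its adjusted p ran from 0.0262 to 0.301, with 4 of 15 under the threshold and the log2 fold change between -0.24 and -0.17.

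Fto, the other eraser (chromosome 8, 91313525 to 91668439, plus strand), had 61.6 and 76.2 CPM in WT and 75.5 and 71.4 CPM in KO. The first WT library was the lowest and the groups overlapped (log2 fold change 0.09, 95% confidence interval -0.16 to 0.34, adjusted p = 0.691 by edgeR). Annotated genes on the opposite strand share 3.44% of the Fto exon bases and had at most 8 counts in any library.

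**Figure D3:**
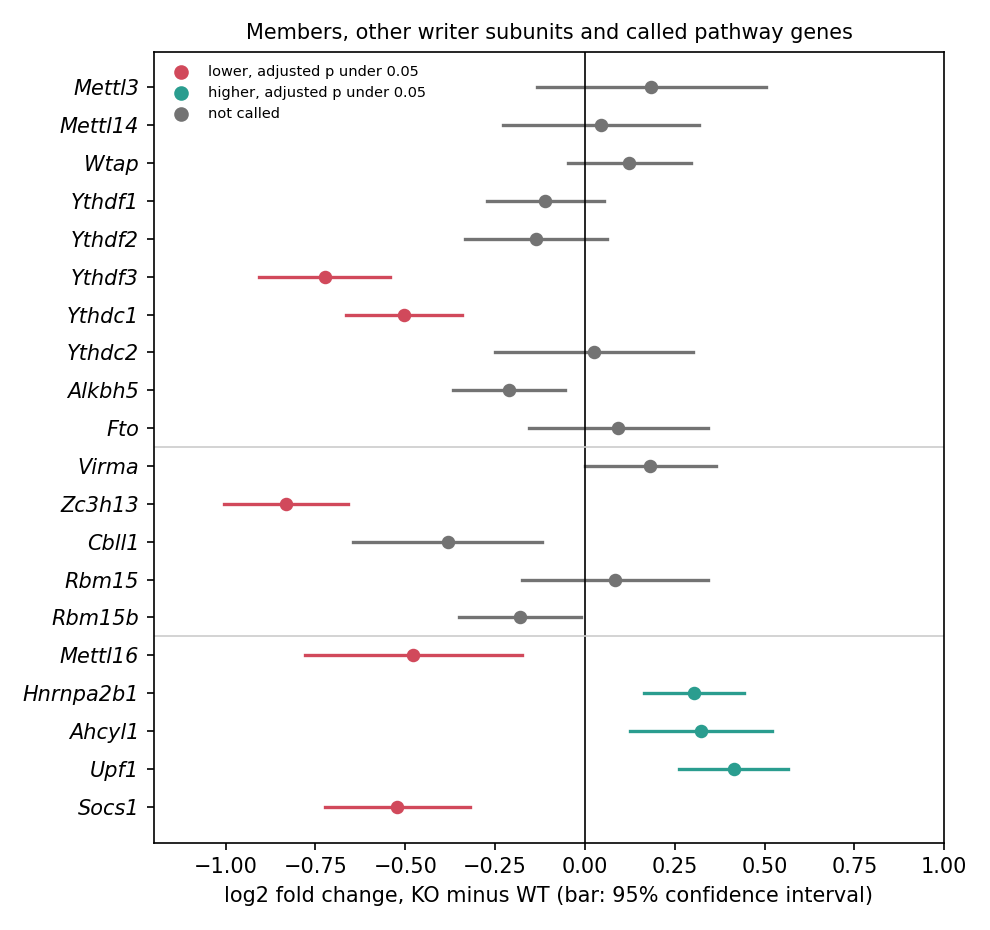
Log2 fold change, KO minus WT (horizontal axis, points), with 95% confidence intervals (bars) for the 10 members, the 5 other writer subunits and the other pathway genes that were called. The intervals of Ythdf3, Ythdc1, Zc3h13, Mettl16 and Socs1 lie wholly below 0 and those of Hnrnpa2b1, Ahcyl1 and Upf1 wholly above. The intervals of Alkbh5, Cbll1 and Rbm15b also lie below 0, although these were not called after adjustment.

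The other subunits of the writer complex were set beside the members. Of 5, 1 fell, 0 rose and 4 were not called, with a median log2 fold change of -0.18 against 0.00 over all tested genes. The one that fell was Zc3h13, a zinc finger protein that keeps the complex in the nucleus (chromosome 14, 75284373 to 75344426, plus strand). It had 241 and 263 CPM in WT and 139.7 and 143.7 CPM in KO, so both KO libraries were far below both WT libraries. Its level fell by 43.8% (log2 fold change -0.83, SE 0.08, 95% confidence interval -1.004 to -0.659, adjusted p = 3.71e-05 by edgeR). On log2(RPKM + 0.5) over every gene with a read its adjusted p by limma was 0.0809.

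The promoter of Ythdc1 is shown with that of Zc3h13, the writer subunit that fell, and with that of Mettl3, which was not called, so that their upstream sequences can be read side by side. The promoters of Mettl14, Ythdc2 and Ythdf3, the member with the lowest fold change, were not analysed here. Each stretch is the 200 bases from 250 to 51 bases before the RefSeq start (GRCm38.p6), read on the strand of the gene, at chr5:86804016-86804215 (plus), chr14:75284116-75284315 (plus) and chr14:52305175-52305374 (minus). None of the 3 stretches overlaps an annotated exon. Capitals mark GGGCGG, the GC box, on either strand.
Ythdc1: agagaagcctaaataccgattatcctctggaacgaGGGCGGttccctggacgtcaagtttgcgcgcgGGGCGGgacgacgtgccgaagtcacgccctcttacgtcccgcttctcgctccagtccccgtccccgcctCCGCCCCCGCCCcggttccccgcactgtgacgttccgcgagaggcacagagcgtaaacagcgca
Zc3h13: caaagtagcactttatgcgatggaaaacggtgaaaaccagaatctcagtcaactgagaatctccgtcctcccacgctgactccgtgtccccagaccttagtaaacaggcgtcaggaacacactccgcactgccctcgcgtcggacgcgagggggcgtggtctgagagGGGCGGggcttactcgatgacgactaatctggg
Mettl3: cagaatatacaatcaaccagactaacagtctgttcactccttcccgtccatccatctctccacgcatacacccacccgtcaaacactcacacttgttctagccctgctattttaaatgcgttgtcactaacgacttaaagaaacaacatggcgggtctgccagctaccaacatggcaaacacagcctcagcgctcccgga
Ythdc1 holds 4 matches to GGGCGG, 2 of them on the opposite strand and side by side, Zc3h13 holds 1 and Mettl3 holds 0. Of 32851 windows of this length in the RefSeq table, 24.6% hold the motif on at least 1 strand. So do 4 of the 7 members that matched an entry by symbol, namely Ythdc1, Ythdf1, Ythdf2 and Wtap, of which Ythdf1, Ythdf2 and Wtap were not called. CCAAT, searched on both strands too, is in 28.4% of all windows and, among the members, in Ythdf1 and Wtap. A member was counted if any of its windows held the motif, whereas 24.6% and 28.4% are shares of single windows. The G and C content is 65.5% for Ythdc1, 57.0% for Zc3h13 and 49.0% for Mettl3, against a median of 51.5% over all windows. These matches describe the letters only.

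The next subunits were named after their values were seen. Cbll1 (Hakai), a RING finger subunit, had 49.2 and 49.3 CPM in WT and 37.9 and 37.7 CPM in KO, values that were tight within each group. Its log2 fold change of -0.38 (SE 0.12) had an adjusted p of 0.0527 by edgeR, 0.0374 by DESeq2 and 0.0409 by limma-voom, and Gm29542 on the opposite strand shares 17.6% of its exon bases. Virma, the scaffold of the complex, which the deposited table lists under a clone name and which was matched by its gene identifier, lay in the other direction, with 110 ± 1.29 CPM in the WT group, 125 ± 7.27 in the KO group and a log2 fold change of 0.18 (adjusted p = 0.184 by edgeR).

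Among 6 other methyltransferases and their partners, 1 fell and 5 were not called (median log2 fold change 0.15). Mettl16, which marks U6 snRNA and the mRNA of the methionine adenosyltransferase Mat2a, had 57.4 and 45.6 CPM in WT and 38.2 and 35.8 CPM in KO. The KO pair was lower, but the WT libraries were unequal. Its log2 fold change was -0.48 (SE 0.14, adjusted p = 0.0372 by edgeR). The call was lost without WT replicate 1 (log2 fold change -0.30, adjusted p = 0.354), without KO replicate 2 (0.0593) and with limma on log2(RPKM + 0.5), both over every gene (0.391) and after leaving out genes under a mean of 1 RPKM (0.211). Of 8 genes of methyl donor supply, 7 were tested. Ahcyl1, related to the enzyme that clears S-adenosylhomocysteine, stood at 77.4 ± 3.32 CPM in WT and rose to 96.9 ± 0.416 CPM, with a log2 fold change of 0.32 (SE 0.09, edgeR adjusted p = 0.0316), and the other 6 were not called. The Ahcyl1 call was lost without WT replicate 1 (0.0602) and without WT replicate 2 (0.160). It was also lost with limma on log2(RPKM + 0.5) over every gene (0.142) or with the RPKM filter (0.0847). Mat1a, the liver form of methionine adenosyltransferase, had 0 counts in every library.

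Of 8 other proteins reported to read the mark or to bind RNA that it has opened, 1 rose and 7 were not called (median log2 fold change 0.00). Hnrnpa2b1, a nuclear ribonucleoprotein, had 1323 and 1220 CPM in WT and 1525 and 1613 CPM in KO. The KO libraries were both higher (log2 fold change 0.30, SE 0.06, adjusted p = 0.00755 by edgeR), and the call was lost without WT replicate 2 (0.0919). With limma on log2(RPKM + 0.5) it was lost over every gene (0.171) and with the RPKM filter (0.0548).

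Of 8 partners of the YTH readers in splicing, export and decay, 1 rose and 7 were not called (median log2 fold change 0.10). Upf1, the helicase of nonsense-mediated decay, had 280 and 275 CPM in WT and 366 and 374 CPM in KO, with both KO libraries clearly above. Its level was 33.3% higher (log2 fold change 0.41, SE 0.07, adjusted p = 0.00195 by edgeR, and 0.0884 by limma on log2(RPKM + 0.5) over every gene). Of 3 signalling inhibitors whose mRNAs are reported targets of the mark in T cells, Socs1, an inhibitor of JAK kinases, had 277 and 330.3 CPM in WT and 201.5 and 221 CPM in KO. It fell (log2 fold change -0.52, SE 0.09, adjusted p = 0.00266 by edgeR), and with limma on log2(RPKM + 0.5) the adjusted p was 0.154 over every gene and 0.0503 with the RPKM filter. Socs3 and Cish were not called.

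Over all 7 of these lists, 3 of 44 tested genes rose and 3 fell, which is 6 calls beside the background of 14.5% of all tested genes. The median log2 fold change was 0.03, and that of the 10 members was -0.04. Without KO replicate 2 the number that rose was 5.

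**Figure D4:**
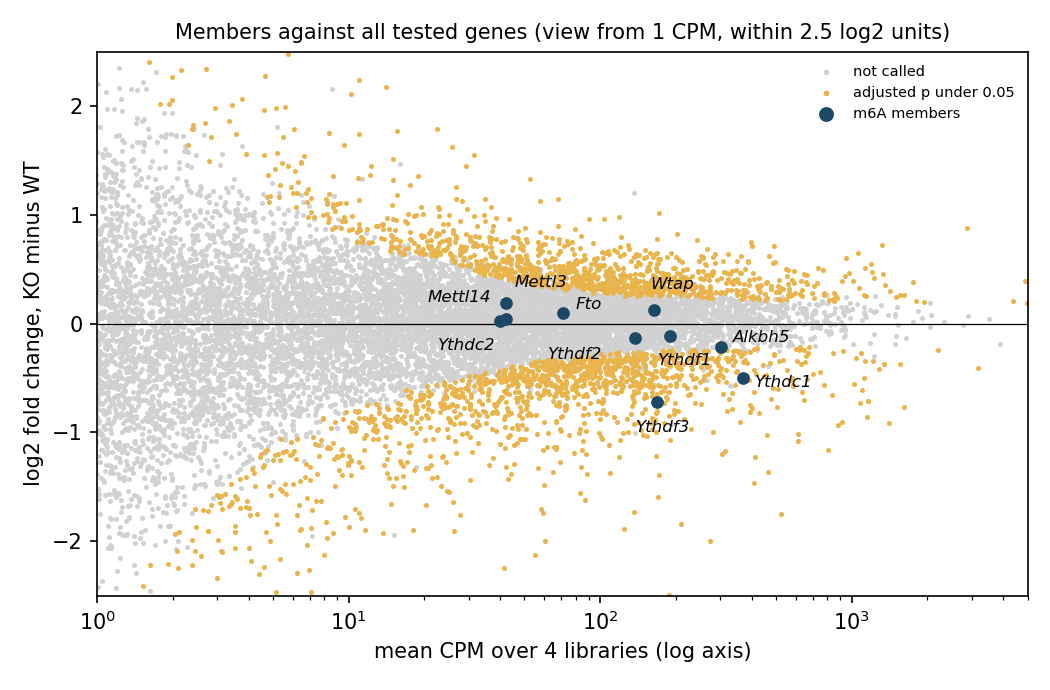
Log2 fold change, KO minus WT (vertical axis), against mean CPM over the 4 libraries (horizontal log axis) for tested genes, with called genes in yellow, others in grey and the 10 members as dark points. The view leaves out 3813 of 16588 genes, which lie below 1 CPM, above 5000 CPM or beyond 2.5 log2 units. Ythdf3 and Ythdc1 lie in the band of called genes on the lower side, Alkbh5 at its edge and the other 7 members in the grey band.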

How the data were processed

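The authors deposited gene counts for each of 4 libraries and a table of RPKM values. The latter are the counts divided by the length listed beside them and by the library total, to a relative tolerance of 1e-06. Per the submitters' processing notes, the tools were STAR 2.6.0a and HTSeq 0.6.1, with cutadapt 1.17, FastQC 0.11.5 and DESeq2 1.24.0, on GRCm38 (mm10). Not given in the sources used here are their settings, the strand and the annotation release. Deposited counts were tested with edgeR 4.0.16 under R 4.3.3 (robust quasi-likelihood fit on genotype alone, filterByExpr, TMM factors). CPM are scaled by the TMM factors, which lay from 0.993 to 1.01. Standard errors and confidence intervals come from the F statistic. Alternatives were other scaling factors and filters, DESeq2 1.42.0, limma-voom (limma 3.58.1), a replicate block, leaving out each library, and limma on log2(RPKM + 0.5) or log2(RPKM + 0.1). The RPKM filter was added after the data were seen. Coordinates are from GENCODE release 21 for mouse, matched by gene identifier. The edgeR step was tested on simulated data, where it called 18.6% of changes of 0.5 log2 units and 51% of changes of 1 log2 unit. Changes of 3 log2 units were called in 70.2%. The changed genes in the simulation were drawn at random from the tested genes, scarce ones included. These shares are thus averages over all levels, and they were not computed at the level of the members. Of 105 calls there, 7 were false. Small changes can thus go uncalled. Replicate pairs differed by more than sampling noise (chi-square over degrees of freedom 16.7 and 19.0). All members are reported, and from each pathway list the called genes. A further marker gene is not reported here. The members and lists were chosen with earlier results of these data known. Figures were drawn with matplotlib 3.10.9.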

Additional observations from a re-analysis of the deposited data

How the results depend on the processing

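Ythdf3 and Ythdc1 were lower in the KO under all 15 alternatives and were called under 13 of the 15. The calls were lost with limma on log2 RPKM over every gene with a read, where 0 genes were called in either direction, so that 0 members and 0 other pathway genes were called with a pseudocount of 0.5 or 0.1. There Ythdf3 had log2 fold changes of -0.71 and -0.72 (adjusted p = 0.0860 and 0.0735) and Ythdc1 -0.50 and -0.50 (0.0970 and 0.0850), and the cause was not tested. With genes under a mean of 1 RPKM left out, 483 genes rose, 621 fell, 2 members fell, and 1 other pathway gene rose and 1 fell. Alkbh5 passed the threshold by DESeq2 (-0.21), by limma-voom (-0.21) and with the filter of 1 CPM (-0.22). Leaving out 1 library gave Alkbh5 log2 fold changes from -0.24 to -0.17, Fto from -0.051 to 0.262, Mettl14 from -0.003 to 0.105, Ythdc2 from -0.006 to 0.066 and Alkbh1 from -0.011 to 0.171. Fto and Mettl14 were below 0 without WT replicate 1, and Ythdc2 and Alkbh1 without WT replicate 2. The number of other pathway genes that rose ran from 2 to 5 in those fits. Where an arm was left with 1 library, that library was assumed to vary like the other group. With a replicate block 1304 genes rose and 1505 fell, against 1100 and 1308 without it, and 2 members fell. Same-numbered libraries did not deviate together (correlation -0.045 across genes). With 2 libraries per group that is a single contrast, so it cannot settle whether the numbers pair the samples. With 2 libraries per group, the width of the intervals limits what can be said of the members that were not called.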

Other observations

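The other AlkB family genes, relatives of Alkbh5 and Fto with other substrates such as damaged DNA and tRNA, gave no call among 7 tested by edgeR, and 0 were at an unadjusted p under 0.05. DESeq2 and limma-voom called 0 as well. The most abundant by CPM was Alkbh1, an enzyme with reported tRNA and DNA substrates, at 67.4 ± 6.17 CPM in WT and 70.9 ± 0.233 CPM in KO (SD, n = 2). Its groups overlapped, and the log2 fold change was 0.07 (SE 0.10) at an edgeR adjusted p of 0.741.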
